A study of Mus musculus with 14 samples.

Results

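The genes of cholesterol synthesis, intracellular cholesterol transport and SREBP2 control were examined in mouse liver. They are 29 genes taken by symbol from the deposited table, out of 43548 genes in all, and they are described here in pathway order: 4 control genes, 19 enzymes of synthesis, 4 transport genes and 2 esterifying enzymes. All mice were C57BL/6 and carried the floxed allele of Cul3, the scaffold subunit of cullin 3 ubiquitin ligases. They ate control diet (CD) or Western diet (WD) for 13 weeks and then received by tail vein an adeno-associated virus (AAV). AAV-TBG-Null left Cul3 intact (WT), and AAV-TBG-Cre expressed the Cre recombinase from TBG, a promoter active in hepatocytes, to delete Cul3 there (KO). Mice stayed on their diet for 5 more weeks. The labels give 3 libraries of WT on CD (replicates 1, 3 and 4), 3 of KO on CD (replicates 1 to 3), 4 of WT on WD and 4 of KO on WD. The virus leaves Cul3 intact in liver cells that do not use TBG, and the sources used here do not state the age or sex of the mice or what the diets contained.

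Cholesterol is built from acetyl-CoA through mevalonate, isoprenoid diphosphates, squalene and lanosterol. The transcription factor SREBP2 (gene Srebf2) is held in the endoplasmic reticulum by its escort SCAP and the INSIG proteins while membrane sterol is plentiful. When sterol falls, SCAP carries SREBP2 to the Golgi, where it is cut, and the released part enters the nucleus and turns on the genes of synthesis and uptake. The liver both makes cholesterol and takes it up from lipoproteins, so its synthesis genes are known to respond to dietary cholesterol.

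RNA was read as 3' tags and is given as FPKM. Levels are compared here between libraries for a gene and never between genes, since FPKM divides by a transcript length that a 3' tag does not depend on. Summed FPKM ran from 443818 to 523079 per library, and 8600 to 9970 genes reached 1 FPKM. A rough depth read from the commonest low value was 3563000 to 11023000 reads per library, lowest in KO on CD replicate 3. The libraries fell into 2 sets by the FPKM ratios that their sparse genes share. Set 1 held WT on CD replicates 1, 3 and 4, WT on WD replicates 3 and 4 and KO on WD replicates 1, 2 and 4. Set 2 held the 3 KO libraries on CD, WT on WD replicates 1 and 2 and KO on WD replicate 3. The sources used here do not say what distinguishes them. Since WT on CD is all set 1 and KO on CD all set 2, genotype and set cannot be told apart on CD, and comparisons are also given with set as a term. The labels name no animal for a library, so p-values reflect only the spread among libraries, which may be technical. Cul3 itself ran from 23.9 to 29.5 FPKM in WT and 11.3 to 18.3 in KO on CD, and from 7.46 to 25.9 in WT and 18.5 to 26.6 in KO on WD. The sources used here do not state the deleted exons, and 3' tags need not come from them, so Cul3 levels are no check of the deletion or the labels. Whole liver was sampled, and fewer cells of a type cannot be told apart from less RNA per cell. The 8 hepatocyte markers were all detected and summed to 16045 to 17812 FPKM in WT and 18563 to 19344 in KO on CD, and to 13719 to 26916 in WT and 10659 to 13010 in KO on WD. By this sum the KO libraries on WD lay below all others and the KO libraries on CD above the WT libraries on CD. Such a sum mostly follows the most abundant markers, and single markers did not all go with it. Between KO and WT, 4 of the 8 markers were below 0 on CD and 3 on WD. Their median log2 difference was 0.09 on CD and 0.08 on WD, against 0.18 and 0.23 over all tested genes. The part of these levels in the results was not tested.

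Of the 29 genes, 25 reached 1 FPKM in at least 3 libraries and were tested with limma among 10870 genes. Srebf2, Ggps1, Dhcr7 and Npc1l1 did not. Pmvk, Fdps and Sqle passed that filter through CD libraries alone, so that they had to be higher on CD to be tested at all. Idi1 reached 1 FPKM only in the 3 WT libraries on CD and in 3 KO libraries on WD. These are the high groups in its comparisons, so its calls are not independent of the filter. Over 5 comparisons, 23 of the 125 tested values were called at a Benjamini-Hochberg adjusted p under 0.05, in 15 of the genes. Differences are of log2(FPKM + 1), a scale that shrinks the change of a gene at low FPKM.

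The promoters of 3 genes are shown because they belong to a gene that fell on WD in both genotypes (Nsdhl), to the 1 gene of the 25 tested that rose on WD in WT (Insig2), and to the 1 gene whose promoter held the sterol response element searched for (Hmgcs1). Each is the 250 bases before the RefSeq gene start (the most upstream start for Insig2), on the gene's strand, from RefSeq on GRCm38.p6 (mm10), at chr13:119690101-119690350 (plus strand) for Hmgcs1, chrX:72918271-72918520 (plus strand) for Nsdhl and chr1:121332590-121332839 (minus strand) for Insig2. Capitals mark TCACNCCAC and CCAAT on either strand.
Hmgcs1: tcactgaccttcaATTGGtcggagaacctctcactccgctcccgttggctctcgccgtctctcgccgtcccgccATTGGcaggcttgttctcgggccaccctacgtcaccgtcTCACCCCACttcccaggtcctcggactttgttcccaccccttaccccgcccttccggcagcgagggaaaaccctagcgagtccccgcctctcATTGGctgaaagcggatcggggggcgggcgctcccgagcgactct
Nsdhl: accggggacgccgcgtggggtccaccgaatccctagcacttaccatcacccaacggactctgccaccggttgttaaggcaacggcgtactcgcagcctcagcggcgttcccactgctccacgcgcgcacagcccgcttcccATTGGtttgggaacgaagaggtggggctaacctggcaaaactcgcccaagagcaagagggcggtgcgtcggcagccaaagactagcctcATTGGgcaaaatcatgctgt
Insig2: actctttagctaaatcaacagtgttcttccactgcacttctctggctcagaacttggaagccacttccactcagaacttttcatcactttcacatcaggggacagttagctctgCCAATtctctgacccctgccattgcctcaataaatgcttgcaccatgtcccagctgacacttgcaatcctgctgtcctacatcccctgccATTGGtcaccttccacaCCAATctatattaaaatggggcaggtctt
In Hmgcs1 the element starts 137 bases before the gene start, between CCAAT boxes, here read as ATTGG, that start at 237, 176 and 45 bases. Nsdhl holds CCAAT on the minus strand at 109 and 20 bases and Insig2 holds it at 136, 46 and 29 bases. CCAAT is the motif of NF-Y, a factor known to act with SREBP2. Promoter windows matched 23 of the 29 genes and ran to 50 bases after the start. CCAAT on either strand was in 21 of these 23, against 41.1% of all 27025 genes with a window. TCACNCCAC was in 1 of 23 against 1.44% of all genes, the E-box CACGTG in 5 of 23 against 8.09%, and TGACNNNGC, the core bound by NRF2, in 4 of 23 against 14%. All 4 motifs were searched on both strands, and none contains another. A match describes the letters in these windows and no site of binding.

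The first question is how the Western diet changed these genes where Cul3 was intact. In WT livers on WD the enzymes that strip methyl groups from lanosterol, Cyp51, Msmo1 and Nsdhl, fell (log2 fold changes of -2.29, -2.67 and -2.33), Idi1 and Fdps of the isoprenoid branch fell, and Insig2 rose. Of the 25 genes tested, 6 fell and 1 rose, which is 28% against 1.30% of all 10870 tested genes (0.635% called lower and 0.662% higher). The median log2 difference was -0.73 over the 25 genes and 0.04 over all tested genes, and 20 of the 25 were below 0. Leaving aside the 3 genes that passed the filter through CD libraries alone, 6 of the other 22 were called, Idi1 among them. With the library set as a term, 4 were called (16% against 0.699% of all genes): Idi1, Cyp51, Msmo1 and Nsdhl. The same 4 passed within set 1 alone. Without WT on CD replicate 3 or 4 the count was 4, with 40 and 44 of all 10870 tested genes called, against 141 in the main fit.

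Cyp51 (ENSMUSG00000001467, mm10 chromosome 5, 4081145 to 4104746, minus strand) encodes lanosterol 14-alpha-demethylase, the first enzyme that acts on lanosterol. In WT it measured 29.4, 34.0 and 36.9 FPKM on CD against 4.40, 7.11, 6.48 and 6.30 on WD. In KO it measured 75.0, 37.2 and 67.9 FPKM on CD against 12.7, 16.7, 13.2 and 9.35 on WD. Every WD library lay below every CD library. On WD Cyp51 fell by 2.29 ± 0.25 (SE) on the log2 scale in WT (limma adjusted p = 7.60e-04) and by 2.09 ± 0.25 in KO (adjusted p = 0.00143).

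Msmo1 (ENSMUSG00000031604, mm10 chromosome 8, 64718139 to 64733792, minus strand), the methylsterol monooxygenase that takes the methyl groups off carbon 4, measured 109, 101 and 112 FPKM on CD and 14, 17.1, 16.7 and 16.3 on WD in WT. In KO it measured 178, 54.5 and 127 FPKM on CD and 26.1, 37.9, 24.9 and 17.7 on WD. The diets did not overlap in either genotype, and the CD libraries spread more widely in KO than in WT. Msmo1 fell by 2.67 ± 0.33 in WT (limma adjusted p = 0.00142) and by 2.02 ± 0.33 in KO (adjusted p = 0.00632) on the log2 scale.

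Nsdhl (ENSMUSG00000031349, mm10 chromosome X, 72918557 to 72958514, plus strand), the sterol dehydrogenase that works in the same demethylation, measured 31.3, 31.7 and 28.9 FPKM in WT on CD and 5.54, 3.52, 7.14 and 5.59 on WD. In KO it measured 32.6, 15.2 and 19.5 FPKM on CD and 11.5, 9.93, 6.85 and 6.35 on WD. The diets did not overlap in either genotype. Nsdhl fell by 2.33 ± 0.27 in WT (limma adjusted p = 0.00109) and by 1.25 ± 0.27 in KO (adjusted p = 0.0249). The KO value lost its call without KO on CD replicate 1 or 3 or KO on WD replicate 2 or 4 (highest adjusted p = 0.092), while the WT falls of Cyp51, Msmo1 and Nsdhl were called without any 1 library. With the set as a term their log2 fold changes in WT were -2.26, -2.64 and -2.13 (adjusted p = 0.00389, 0.00601 and 0.00429).

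**Figure D1:**
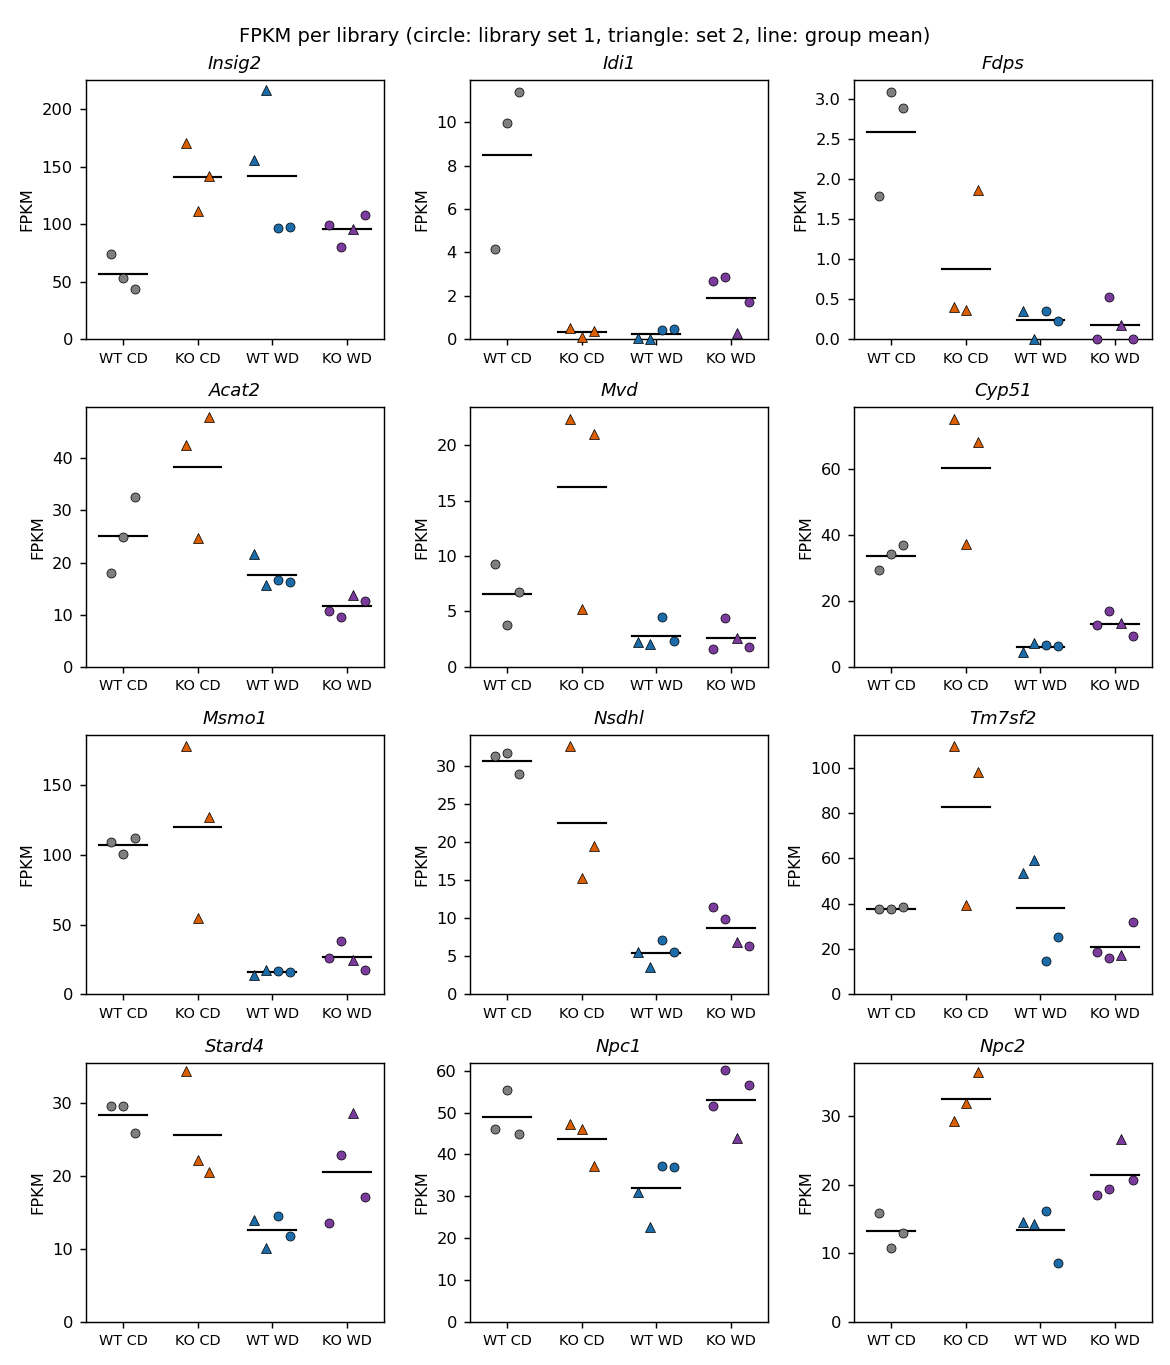
FPKM of 12 genes in each of the 14 libraries, by group on the horizontal axis (WT or KO, CD or WD), with a line at each group mean, circles for library set 1 and triangles for set 2. Cyp51, Msmo1 and Nsdhl lie lower in every WD library than in any CD library of the same genotype, and Insig2 in WT on WD splits by set.

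The other enzymes between lanosterol and cholesterol did not pass in WT. Tm7sf2, a sterol C14-reductase, measured 37.6, 37.5 and 38.4 FPKM on CD and 53.6, 59.4, 14.6 and 25.1 on WD. Its 2 high WD libraries are those of set 2 and its 2 low ones those of set 1, on either side of the CD libraries (log2 fold change -0.19 ± 0.45). Ebp, the sterol isomerase that shifts the double bond in the second ring, measured 431, 442 and 468 FPKM on CD and 507, 621, 382 and 382 on WD, again with set 2 above and set 1 below the CD libraries (0.05 ± 0.19). Hsd17b7, the 3-keto-sterol reductase, had a log2 fold change of -0.69 ± 0.23 (limma adjusted p = 0.169), and Sc5d, which introduces a double bond in the last steps, one of -0.18 ± 0.19 (adjusted p = 0.642). Dhcr7, which makes cholesterol from 7-dehydrocholesterol, ranged from 0 to 0.508 FPKM over the 14 libraries and was not tested.

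Of the isoprenoid branch, Idi1 and Fdps fell in WT on WD. Idi1 (ENSMUSG00000058258, mm10 chromosome 13, 8885501 to 8892451, plus strand), the isopentenyl diphosphate isomerase, measured 4.16, 9.95 and 11.4 FPKM in WT on CD and 0.0532, 0, 0.399 and 0.461 on WD. No WD value came near the CD values. Idi1 fell by 2.87 ± 0.39 on the log2 scale (limma adjusted p = 0.00271, and 0.00637 at a fall of 2.43 with the set as a term). Reads of Idi1 could be shared with its paralog Idi2, and the sources used here do not say how such reads were assigned.

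Fdps, the farnesyl diphosphate synthase, measured 1.79, 3.09 and 2.89 FPKM in WT on CD and 0.356, 0, 0.351 and 0.227 on WD. The groups did not overlap, and Fdps fell by 1.53 ± 0.28 (limma adjusted p = 0.0191). The adjusted p was 0.0586 with the set as a term, and the call ended without WT on CD replicate 3 or 4 (highest adjusted p = 0.126). Fdps lies on the same strand as the gene model Gm43738, which covers its 3' end and is not used here. Ggps1, the geranylgeranyl diphosphate synthase, stood at 0.321 to 1.65 FPKM and was not tested.

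In the mevalonate branch no enzyme passed in WT, and all 5 had log2 fold changes below 0. Hmgcs1, the synthase that makes HMG-CoA, had the smallest p of them. It measured 61.7, 41.0 and 50.1 FPKM in WT on CD and 25.8, 25.1, 24.6 and 25.0 on WD. The 4 WD libraries lay close together and below all 3 CD libraries, with a log2 fold change of -0.97 ± 0.31 (limma adjusted p = 0.156). Acat2, an acetyl-CoA acetyltransferase at the entry of the pathway, had a log2 fold change of -0.47, the mevalonate kinase Mvk -0.73, the phosphomevalonate kinase Pmvk -1.11 and the decarboxylase Mvd -0.98, with adjusted p from 0.174 to 0.375.

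Of the 3 enzymes from farnesyl diphosphate to lanosterol, none passed in WT. Fdft1, the squalene synthase, measured 7.43, 5.64 and 10 FPKM on CD and 2.64, 3.85, 3.65 and 3.17 on WD, without overlap (log2 fold change -0.98 ± 0.26, limma adjusted p = 0.0924). At its 3' end Fdft1 shares 774 bases with Ctsb on the other strand, at a mean of 79.5 FPKM, and the sources used here do not say whether counting used the strand. Sqle, the squalene epoxidase, known as a regulated step of the pathway, measured 1.64, 0.786 and 0.932 FPKM on CD and was listed at 0 in all 4 WD libraries. Its log2 fold change of -1.06 ± 0.30 depends on the added 1 FPKM (adjusted p = 0.116). Lss, the lanosterol synthase, had a log2 fold change of -0.32 ± 0.29 (adjusted p = 0.597).

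**Figure D2:**
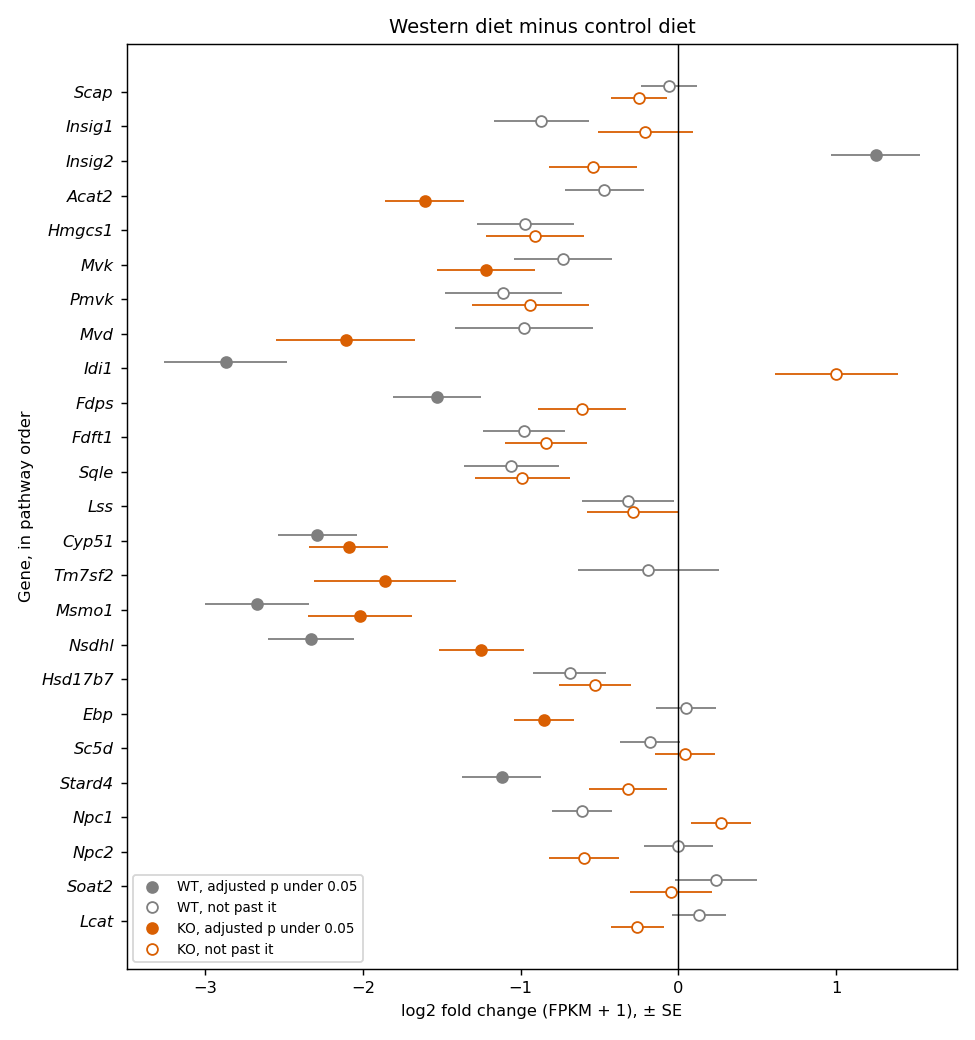
Log2 fold change of WD over CD with its standard error for the 25 tested genes in pathway order, in WT and in KO, filled where the limma adjusted p was under 0.05. Cyp51, Msmo1 and Nsdhl are filled in both genotypes, at -2.29, -2.67 and -2.33 in WT and at -2.09, -2.02 and -1.25 in KO.

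Insig2 (ENSMUSG00000003721, mm10 chromosome 1, 121304353 to 121332589, minus strand) was the control gene that passed in WT, and it rose. INSIG2 binds SCAP and holds the SREBP2 complex in the endoplasmic reticulum. Insig2 measured 73.7, 53.5 and 43.4 FPKM in WT on CD and 156, 217, 97.0 and 97.2 on WD. All WD libraries lay above all CD libraries, and the 2 WD libraries of set 2 lay above the 2 of set 1. The log2 fold change was 1.25 ± 0.28 (limma adjusted p = 0.0478) and 0.99 with the set as a term (adjusted p = 0.151). The call ended on leaving out any 1 of 12 of the 14 libraries, all but WT on WD replicates 3 and 4, and the highest adjusted p was 0.207, without WT on CD replicate 4.

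The other control genes did not pass. Insig1, the other INSIG gene and itself an SREBP target, measured 6.52, 3.40 and 4.96 FPKM in WT on CD and 2.84, 0.897, 2.42 and 3.18 on WD. The groups did not overlap, with a log2 fold change of -0.87 ± 0.30 (limma adjusted p = 0.19). Scap had a log2 fold change of -0.06 ± 0.18, at 0.793 to 1.18 FPKM over the WT libraries. Srebf2 ranged from 0 to 0.849 FPKM over the 14 libraries, and mRNA levels do not measure the cutting of SREBP2.

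Among the transport genes Stard4, a carrier of cholesterol between membranes, measured 29.5, 29.6 and 25.8 FPKM in WT on CD and 14, 10.1, 14.5 and 11.7 on WD. The groups were well apart, and Stard4 fell by 1.12 ± 0.25 (limma adjusted p = 0.046). The adjusted p was 0.0658 with the set as a term, and the call ended in 10 of the 14 fits that left out 1 library, the exceptions being KO on CD replicates 1 and 3 and KO on WD replicates 1 and 3 (highest adjusted p = 0.185, without WT on CD replicate 3). Npc1 (ENSMUSG00000024413, mm10 chromosome 18, 12189692 to 12236400, minus strand), the lysosomal membrane protein that exports cholesterol, measured 46.2, 55.3 and 45.0 FPKM on CD and 31.0, 22.7, 37.3 and 37.0 on WD (log2 fold change -0.61 ± 0.19, adjusted p = 0.156). Npc2 (ENSMUSG00000021242, mm10 chromosome 12, 84754562 to 84773152, minus strand), the soluble lysosomal protein that hands cholesterol to NPC1, had a log2 fold change of 0.00 ± 0.22. Npc1l1, the cholesterol importer known from the gut, was listed at 0 in all libraries. Neither esterifying enzyme passed: Soat2, which forms cholesteryl esters in the cell, stood at 0.24 ± 0.26 and Lcat, which forms them in plasma, at 0.13 ± 0.17 on the log2 scale.

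The diets were then compared where hepatocyte Cul3 was deleted. In KO livers Cyp51, Msmo1 and Nsdhl again fell on WD, together with 3 enzymes of the mevalonate branch and with Tm7sf2 and Ebp. Of the 25 genes tested, 8 passed and all 8 were lower, which is 32% against 6.38% of all tested genes (2.55% called lower). The median log2 difference was -0.61 over the 25 genes and 0.09 over all tested genes, and 22 of the 25 were below 0. Leaving aside the 3 genes that passed the filter through CD libraries alone, 8 of the other 22 were called. The summed hepatocyte markers were also lower in KO on WD (10659 to 13010 FPKM) than in KO on CD (18563 to 19344). With the library set as a term 1 was called, Cyp51 (4% against 0.350% of all genes), and the log2 fold changes of Cyp51, Msmo1 and Nsdhl were -2.14, -2.07 and -1.54 (limma adjusted p = 0.0156, 0.056 and 0.0581). Without KO on CD replicate 1 or 3 the count was 3, without KO on WD replicate 1 or 2 it was 5, without KO on WD replicate 4 it was 4, and without KO on CD replicate 2 it was 11. In the order given, 115, 151, 282, 143, 196 and 325 of the 10870 tested genes were called in these fits, against 693 in the main fit. The calls over all genes thus fell in all of these fits, also without KO on CD replicate 2, where the count among the 25 rose. Set 2 is the set with KO libraries of both diets and holds 1 of WD, replicate 3.

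Beside Cyp51, Msmo1 and Nsdhl, the mevalonate enzymes Acat2, Mvk and Mvd fell in KO on WD. Acat2 measured 42.5, 24.7 and 47.9 FPKM on CD and 10.6, 9.45, 13.7 and 12.6 on WD, without overlap. It fell by 1.61 ± 0.25 on the log2 scale (limma adjusted p = 0.00564, and 0.0701 with the set as a term). Acat2 has a close paralog, Acat3, so the assignment of its reads is uncertain.

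Mvk measured 2.66, 3.39 and 4.19 FPKM in KO on CD and 0.490, 1.98, 0.246 and 1.24 on WD, and fell by 1.22 ± 0.31 (limma adjusted p = 0.0396, and 0.239 with the set as a term). Its call ended in 9 of the 14 fits that left out 1 library (highest adjusted p = 0.132, without KO on CD replicate 3), the exceptions being the 4 WT libraries on WD and KO on WD replicate 2. Mvd measured 22.4, 5.23 and 21 FPKM on CD and 1.55, 4.38, 2.59 and 1.73 on WD. It fell by 2.11 ± 0.44 (adjusted p = 0.0214, and 0.122 with the set as a term). No library overlapped, but KO on CD replicate 2 lay next to the highest WD library.

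Tm7sf2 and Ebp also fell in KO on WD. Tm7sf2 measured 109.8, 39.5 and 98.4 FPKM on CD and 18.7, 15.9, 17.2 and 31.7 on WD, without overlap, and fell by 1.86 ± 0.45 (limma adjusted p = 0.0342, and 0.312 with the set as a term). Vps51 overlaps 532 bases of Tm7sf2 on the same strand, at a mean of 29.3 FPKM. The overlap is away from the 3' end of Tm7sf2 but holds that of Vps51, so the assignment of reads there is uncertain. Ebp measured 550, 519 and 749 FPKM on CD and 364, 311, 328 and 321 on WD and fell by 0.85 ± 0.19 (adjusted p = 0.0259, and 0.234 with the set as a term). All CD libraries of KO are in set 2, and 3 of the 4 WD libraries are in set 1. The calls of Mvd, Tm7sf2 and Ebp ended without KO on CD replicate 1 or 3 or KO on WD replicate 1 or 4 for Mvd, 1 or 2 for Tm7sf2 and 2 or 4 for Ebp (highest adjusted p = 0.0844, 0.118 and 0.0978).

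The remaining genes did not pass between the diets in KO. Hmgcs1 measured 57.6, 20.7 and 50.9 FPKM on CD and 23.6, 20.8, 26.3 and 13.8 on WD, where replicate 2 on CD fell among the WD libraries (log2 fold change -0.91, limma adjusted p = 0.0784). Fdft1 had a log2 fold change of -0.84 and Sqle one of -0.99 (adjusted p = 0.0625 and 0.0588). Without KO on CD replicate 2 both were called, as were Hmgcs1 and Pmvk. Idi1 was the largest value above 0 (1.0 ± 0.39, adjusted p = 0.11, and called without KO on WD replicate 3), against -2.87 in WT. Across the 25 genes the diet differences of both genotypes were both below 0 in 17 and both above 0 in 0. Pearson's r between them was 0.20 and Spearman's rho 0.35, a description over 25 genes that share a pathway and 1 estimate of the spread.

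The level of the 19 synthesis enzymes was also summed up in each library as the median, over all 19, of the log2 difference from the WT mean on CD, filter not applied. It was -0.01, -0.02 and 0.07 in WT on CD and 0.25, -0.22 and 0.24 in KO on CD. KO on CD replicate 2 was the lowest of the 6 CD libraries. On WD it was -0.94, -0.97, -0.88 and -0.98 in WT and -0.98, -0.52, -0.91 and -0.91 in KO. Every WD library lay below every CD library, in both library sets. On WD 16 to 19 of the 19 enzymes were below the WT mean on CD, against 5 to 12 in CD libraries. The WT libraries on CD set that mean, so their own values lie near 0 by construction. The same count over all genes was not made. KO on WD replicate 2 had the highest median of the 8 WD libraries. In KO on CD, replicate 2 was the lowest of the 3 libraries for 14 of the 19 enzymes, against 32.1% of all tested genes.

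**Figure D3:**
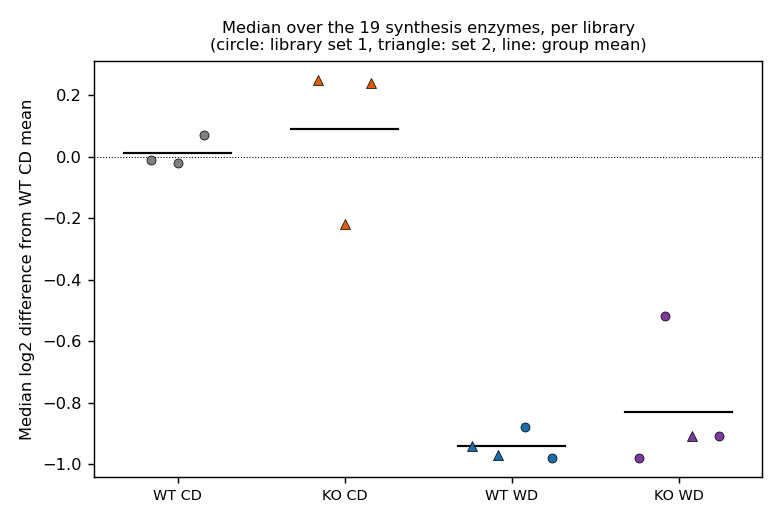
Median over the 19 synthesis enzymes of the log2 difference from the WT mean on CD, 1 point per library, by group on the horizontal axis, with circles for set 1 and triangles for set 2. The CD libraries lie between -0.22 and 0.25 and the WD libraries between -0.98 and -0.52.

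Deletion of Cul3 was first compared on CD, where Insig2, Npc2 and Lcat were higher and Idi1 and Fdps lower in KO. Of the 25 genes tested, 3 rose and 2 fell, which is 20% against 15.0% of all tested genes (11.7% called higher and 3.35% lower). That share is near the background. Leaving aside the 3 genes that passed the filter through CD libraries alone, 4 of the other 22 were called, Idi1 among them. The median log2 difference was 0.25 over the 25 genes and 0.18 over all tested genes. With the library set as a term none was called by limma, against 1.16% of all genes called. At an unadjusted p under 0.05 there were 6 of 25, and the share of all genes at that threshold was not counted. The rough depth was 3563000 to 7012000 reads in the KO libraries on CD against 8609000 to 9344000 in WT on CD. Without WT on CD replicate 3 or 4 the count was 2, and without KO on CD replicate 1 or 3 it was 3. In the order given, 659, 814, 996 and 590 of all tested genes were called in these fits, against 1633 in the main fit.

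Idi1 had the largest difference. It measured 0.513, 0.0981 and 0.380 FPKM in KO on CD against 4.16, 9.95 and 11.4 in WT on CD. The groups were far apart, and Idi1 fell by 2.75 ± 0.41 on the log2 scale (limma adjusted p = 0.00151). It was called without any 1 library (highest adjusted p = 0.0105), and its fall was 1.86 with the set as a term (adjusted p = 0.0765). Fdps measured 0.402, 0.358 and 1.87 FPKM in KO, with replicate 3 inside the WT range of 1.79 to 3.09, and fell by 1.01 ± 0.30 (adjusted p = 0.0394, and 0.338 with the set as a term). Its call ended without WT on CD replicate 3 or 4 or KO on CD replicate 1 or 2 (highest adjusted p = 0.127).

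Insig2 measured 170.5, 111 and 142 FPKM in KO on CD against 73.7, 53.5 and 43.4 in WT, without overlap. It rose by 1.31 ± 0.30 on the log2 scale (limma adjusted p = 0.0145), with 0.78 (adjusted p = 0.349) once the set was a term. Its call ended without WT on CD replicate 3 or 4 or KO on CD replicate 1 or 3 (highest adjusted p = 0.0575). The 2 WT libraries on WD of the same set 2 stood at 156 and 217 FPKM.

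Npc2 measured 29.3, 31.9 and 36.4 FPKM in KO on CD against 15.9, 10.7 and 13.0 in WT. No library overlapped, and Npc2 rose by 1.25 ± 0.23 (limma adjusted p = 0.00559, and 0.17 at a rise of 0.91 with the set as a term). It was called without any 1 library. Macrophages also express Npc2. The 8 Kupffer cell and macrophage markers, all detected, summed to 47.3 to 77.2 FPKM in WT on CD and 96.2 to 196 in KO on CD. On WD they summed to 73.7 to 151 FPKM in WT and 165 to 306 in KO. The endothelial markers also separated the genotypes on CD (41.9 to 49.5 FPKM in WT and 72 to 91.6 in KO), as did the neutrophil and monocyte markers (0.678 to 13.3 and 17 to 45.3). T and B cell markers summed to 1.76 to 4.23 FPKM in WT and 0 to 0.644 in KO on CD. The part of these markers in the deletion results was not tested.

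Lcat measured 182, 203 and 182 FPKM in KO on CD against 116, 109 and 112 in WT, without overlap, and rose by 0.74 ± 0.18 (limma adjusted p = 0.0185, and 0.335 at a rise of 0.50 with the set as a term). Its call ended without WT on CD replicate 3 or 4 or KO on CD replicate 2 or 3 (highest adjusted p = 0.0652). Among the enzymes that did not pass, Cyp51 had a log2 fold change of 0.77 ± 0.27 (adjusted p = 0.0689) and Msmo1 one of -0.00 ± 0.35. Without KO on CD replicate 2, Acat2, Mvd and Cyp51 were called.

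**Figure D4:**
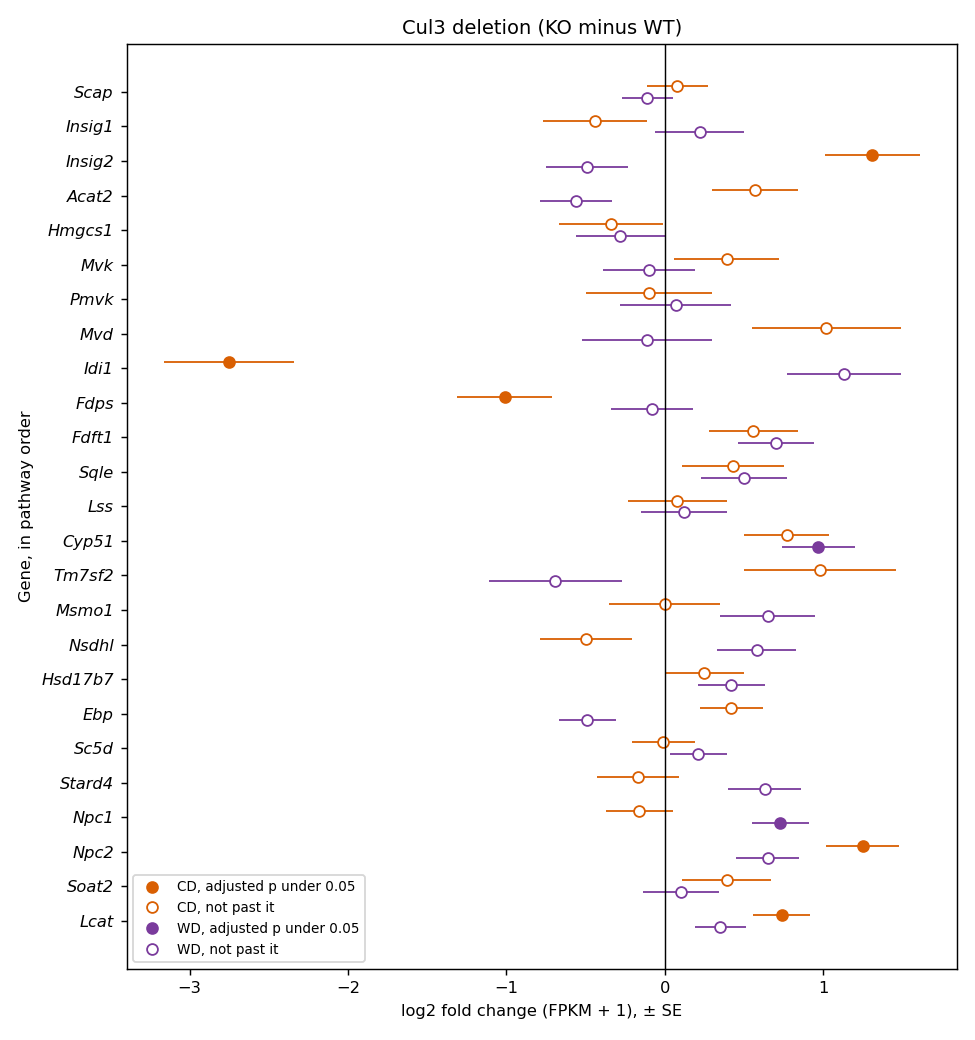
Log2 fold change of KO over WT with its standard error for the 25 tested genes in pathway order, on CD and on WD, filled where the limma adjusted p was under 0.05. On CD Idi1 stands at -2.75 and Insig2 at 1.31, and on WD Cyp51 and Npc1 are filled at 0.97 and 0.73.

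On WD, Cyp51 and Npc1 were higher in KO than in WT. These 2 of 25 genes are 8% against 7.01% of all tested genes (6.01% called higher), which is near the background, and the medians were 0.21 over the 25 genes and 0.23 over all tested genes. With the library set as a term 3 were called (12% against 7.75% of all genes), Npc2 at a rise of 0.73 beside Cyp51 and Npc1. Quantile normalization moved the median of all tested genes from 0.23 to -0.04 and left none called by limma (4.78% of all genes were), with 8 of 25 at an unadjusted p under 0.05. Median centring within each library, at a median of -0.06, left 1 called, Ebp. Both calls ended without WT on WD replicate 1 or KO on WD replicate 1 or 2, where 457, 575 and 487 of all tested genes were called, against 762 in the main fit. The Cyp51 call also ended without KO on WD replicate 3 and the Npc1 call without KO on WD replicate 4.

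Cyp51 measured 12.7, 16.7, 13.2 and 9.35 FPKM in KO on WD against 4.40, 7.11, 6.48 and 6.30 in WT on WD. Each KO library lay above each WT library, and all lay below the CD libraries. Cyp51 rose by 0.97 ± 0.23 (limma adjusted p = 0.0251, and 0.0334 at a rise of 0.96 with the set as a term). Its call ended without WT on WD replicate 1 or KO on WD replicate 1, 2 or 3 (highest adjusted p = 0.0796). Cyp51 shares 166 bases at its 3' end with Akap9 on the other strand, which had a mean of 9.68 FPKM. Msmo1, Nsdhl, Fdft1 and Sqle had log2 fold changes of 0.65, 0.58, 0.70 and 0.50 and did not pass (adjusted p from 0.101 to 0.293). Other enzymes went the other way, and 9 of the 25 genes were below 0. Acat2 and Ebp were lower in KO without overlap, at -0.56 and -0.49 (limma adjusted p = 0.165 and 0.116). Tm7sf2 and Hmgcs1 stood at -0.69 and -0.28 (limma adjusted p = 0.333 and 0.581).

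Npc1 measured 51.5, 60.1, 43.9 and 56.5 FPKM in KO on WD against 31.0, 22.7, 37.3 and 37.0 in WT on WD, without overlap. It rose by 0.73 ± 0.18 (limma adjusted p = 0.0276, and 0.0217 at a rise of 0.62 with the set as a term). Its call ended without WT on WD replicate 1 or KO on WD replicate 1, 2 or 4 (highest adjusted p = 0.0801). Npc1 shares 967 bases at its 3' end with Rmc1 on the other strand, at a mean of 3.96 FPKM. Npc2 measured 18.5, 19.4, 26.7 and 20.7 FPKM in KO and 14.6, 14.3, 16.2 and 8.64 in WT, without overlap (log2 fold change 0.65 ± 0.20, adjusted p = 0.0741), beside the higher macrophage marker sums given above. Idi1 measured 2.69, 2.88, 0.256 and 1.72 FPKM in KO and 0.461 or less in WT, with KO on WD replicate 3, of set 2, inside the WT range (1.13 ± 0.36, adjusted p = 0.0781, and called without that library).

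The effect of the deletion differed between the diets in 1 of the 25 genes, Idi1, which is 4% against 0.340% of all tested genes. Idi1 reached 1 FPKM only in WT on CD and KO on WD, the groups that are high in this difference. It was tested only because it was high there, so that share is not independent of the filter. Idi1 was lower in KO on CD and higher, short of the threshold, in KO on WD, a difference of 3.88 ± 0.55 on the log2 scale (limma adjusted p = 0.0123). The adjusted p was 0.388 at a difference of 2.77 with the set as a term and 0.0671 without WT on CD replicate 3. With the set as a term no gene of the 25 was called by limma (0.0184% of all genes were), with 4 at an unadjusted p under 0.05. Insig2, Ebp, Npc1 and Acat2 had differences of -1.79, -0.90, 0.89 and -1.14, which did not pass (adjusted p = 0.061, 0.0764, 0.0802 and 0.0815). Without WT on WD replicate 3, Insig2, Tm7sf2 and Ebp were called as well, without WT on WD replicate 4, Insig2, Ebp and Npc1, and without KO on WD replicate 3, Insig2. In these fits 663, 1037 and 754 of the 10870 tested genes were called, against 37 in the main fit. The added calls thus came with many more calls over all genes. The effects on both diets share no library but share 1 estimate of the spread, and no gene was called on both.

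Other genes around the pathway were counted in 5 lists: further SREBP2 targets and synthesis genes (16 tested), SREBP processing and sterol-dependent degradation (20), sterol transfer and lysosomal handling (20), lipoprotein receptors and uptake (10) and other users of isoprenoids (13). In WT on WD against CD, limma called none of the 16 further targets, with 4 at an unadjusted p under 0.05, 14 below 0 and a median log2 difference of -0.21. It called none of the 10 receptor genes and none of the 13 isoprenoid genes, with 3 and 2 at an unadjusted p under 0.05. Of the processing genes 1 rose, Pgrmc2, a membrane-bound heme-binding protein, by 0.76 ± 0.15 (adjusted p = 0.0268). Of the sterol transfer genes 1 rose, Gramd1b, which moves cholesterol from the plasma membrane inward. It went from 1.27 ± 0.796 FPKM (SD, n = 3) to 7.93 ± 2.02 (n = 4), a rise of 2.02 ± 0.43 on the log2 scale (adjusted p = 0.0397). With the set as a term neither passed (adjusted p = 0.0727 and 0.115), and the calls ended in 5 and 10 of the 14 fits without 1 library (highest adjusted p = 0.123 and 0.192).

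In KO on WD against CD, 3 of the 16 further targets were called, against 6.38% of all tested genes. Tmem97, a sterol-binding protein that is itself an SREBP target, went from 24.3 ± 5.80 (n = 3) to 8.71 ± 0.983 FPKM (SD, n = 4). It fell by 1.36 ± 0.20 (limma adjusted p = 0.00466) and was called without any 1 library. Por, the reductase that supplies electrons to CYP51 and SQLE, fell by 1.25 (adjusted p = 0.0377), from 635 ± 141 to 271 ± 74.6 FPKM, and Acat1, the mitochondrial acetyl-CoA acetyltransferase, rose by 2.10. Acat1 measured 61.5 to 152 FPKM in set 2 and 158 to 519 in set 1, and with the set as a term its value was 0.76 (limma adjusted p = 0.295). The processing genes Vcp, an ATPase that pulls proteins from membranes, and its cofactor Nploc4 fell by 0.80 and 0.94. With the set as a term they stood at -0.50 and -0.69 (limma adjusted p = 0.208 and 0.224). Erlin1, which takes part in the sterol-dependent degradation of membrane proteins, rose by 2.19 (0.92 with the set as a term, limma adjusted p = 0.362).

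Of the sterol transfer genes in KO on WD, Osbpl1a, a sterol-binding protein, and Scarb2, a lysosomal membrane protein, fell by 0.89 and 1.14, and Lipa, the lysosomal acid lipase, rose by 0.89. Mylip, the ligase that marks lipoprotein receptors for degradation, was the 1 receptor gene called (1.26), and Fnta, a subunit of the farnesyltransferase, the 1 isoprenoid gene (-0.74). With the set as a term no gene of the 5 lists passed in limma, with 5, 5, 3, 1 and 4 at an unadjusted p under 0.05 in the order of the lists. Beside Tmem97 each of these genes lost its call without at least 1 library (highest adjusted p = 0.151, for Mylip).

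On CD the deletion called 3 of the 16 further targets, 5 of 20 processing genes, 5 of 20 sterol transfer genes, 2 of 10 receptor genes and 1 of 13 isoprenoid genes, against 15.0% of all tested genes. Scarb1, the liver receptor for high-density lipoprotein, went from 32.1 ± 3.04 to 57.7 ± 9.97 FPKM (SD, n = 3 each). It rose by 0.82 ± 0.18 (limma adjusted p = 0.0108), was called without any 1 library and was the 1 gene of these lists called with the set as a term (1.06, adjusted p = 0.0277). Por (1.26), Acat3 (1.03) and Mmab (0.83), an enzyme of cobalamin metabolism, rose, as did the receptor chaperone Lrpap1 (0.97) and the Rab prenylation subunit Rabggta (1.0). Of the transfer genes, Osbpl9 (1.43), Osbpl1a (1.07), Scarb2 (0.96) and Lamp1 (0.90) rose. Vcp (0.79) and Pgrmc2 (0.52) of the processing genes rose and Erlin1 fell by 2.30. With the set as a term Vcp stood at 0.39 (limma adjusted p = 0.377) and Erlin1 at -0.62 (limma adjusted p = 0.61). Erlin1 measured 1.05 to 3.81 FPKM in every library of set 2 but KO on WD replicate 3, at 7.58, and 13.0 to 20.4 FPKM in every library of set 1. Osbpl9, Lamp1 and Vcp also separated by set over all groups. They measured at least 148, 13.3 and 179 FPKM in set 2 and at most 137, 12.7 and 175 in set 1. With the set as a term Osbpl9 stood at 0.70 and Lamp1 at 0.28 (limma adjusted p = 0.379 and 0.713). Lrpap1, Acat3, Rabggta and Osbpl1a were called without any 1 library, and the others lost the call without at least 1 (highest adjusted p = 0.165, for Lamp1).

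On WD the deletion called 1 of the 16 further targets, 1 of 20 processing genes, 3 of 20 sterol transfer genes and 2 of 10 receptor genes, against 7.01% of all tested genes. It called none of 13 isoprenoid genes in limma, with 2 at an unadjusted p under 0.05. Pgrmc1, a membrane protein known to bind CYP51 and INSIG, went from 86.7 ± 12.4 to 154 ± 15.8 FPKM (SD, n = 4 each). It rose by 0.83 ± 0.14 (adjusted p = 0.00275, and 0.0024 with the set as a term) and was called without any 1 library. Lipc, the hepatic lipase, rose by 0.77 ± 0.15 (adjusted p = 0.00665), from 51.4 ± 8.30 to 87.7 ± 9.89 FPKM, and was also called without any 1 library.

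Scp2, which carries sterols and fatty acyl groups, fell on WD by 0.99 ± 0.23 (limma adjusted p = 0.0192), from 1042 ± 358 in WT to 505 ± 63.9 FPKM in KO. It lost the call without WT on WD replicate 1 or KO on WD replicate 4 (highest adjusted p = 0.059). Dbi, a carrier of acyl-CoA, fell by 0.74, but with quantile normalization its log2 difference was 0.07. Scarb1 rose by 0.59, Pcyt2, an enzyme of phosphatidylethanolamine synthesis, fell by 0.57, and Lipa rose by 0.75 beside the macrophage marker sums given above. Dbi, Scarb1, Pcyt2 and Lipa lost the call without at least 1 library (highest adjusted p = 0.119, for Lipa), and Lipa also with the set as a term (0.0575). In the difference between the diets, limma called none of the 5 lists' genes, with 6, 7, 11, 4 and 2 at an unadjusted p under 0.05.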

How the data were processed

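Per the labels' protocols, RNA was isolated from liver by Trizol, and QuantSeq 3' FWD kits gave stranded libraries that were read on a NovaSeq. The authors deposited FPKM values for 43548 genes in 14 libraries. Cufflinks and mm10 are named, without versions, in the submitters' processing notes. The sources used here do not state the aligner, annotation, counting strand or handling of shared reads. Total counts are not given, and the rough depth takes the commonest length-scaled value among sparse single-transcript genes as 1 read. That value held 12.1 to 17.3% of those genes, so it gives no interval. Since a 0 may stand for an estimate that failed, it is reported as listed.

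From the deposited FPKM values, log2(FPKM + 1) was modelled with limma 3.58.1 under R 4.3.3, with group means as coefficients, trended eBayes and 10 residual degrees of freedom. A gene entered if 3 or more libraries reached 1 FPKM, and p-values were adjusted over all of them by Benjamini-Hochberg. The procedure was tested on simulated data. The 29 genes, the lists and the alternatives were chosen with earlier results of these data known, and 1 alternative was added after seeing the files. All 29 genes are named, with every library's value for those called. Of each other list the called genes, at most 4 with the smallest p, are named. A gene that this rule takes is not reported here. All 29 genes, 45 cell type markers and 90 of 91 other list genes matched. They matched by symbol, except Ufd1 and Adgre1 through the GENCODE annotation and Marchf6 and Spring1 through a RefSeq synonym and GENCODE.

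The library sets come from average linkage on the share of sparse genes (not 0 in 8 libraries or fewer) that have a common FPKM ratio within 0.004 log2 units. Medians of this share were 7.08% within set 1, 4.78% within set 2 and 2.63% between them. Single pairs overlapped, at 3.01 to 11.8% inside set 1, 2.02 to 18.1% inside set 2 and 1.4 to 3.82% across the sets. Gene Yam1, with the placeholder 999999999 in 8 libraries, was left out. No libraries were identical, and the highest correlation was 0.974. Tables used pandas 2.3.3 in Python 3.11.15. Alternatives were another pseudocount, no filter, quantile normalization, median centring, the library set or the placeholder as a term, a replicate block, fits of the groups compared or of a set alone, and leaving out each library.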

Additional observations from a re-analysis of the deposited data

Results flagged for a closer look

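Among 50 groups of 4 libraries examined for a library far from the rest, 3 were found, where chance gives about 1 in 20. Acat2 stood at 21.7 FPKM in WT on WD replicate 1, against 15.7 to 16.6 in the other 3. Pmvk stood at 0.307 FPKM in WT on WD replicate 4 and was listed at 0 in the other 3, so that any value above 0 would have stood out. Mvd stood at 4.49 FPKM in WT on WD replicate 3, against 2.08 to 2.32 in the other 3.

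For Idi1 the deletion effect differed between the diets. Idi1 passed the filter only through WT on CD and KO on WD, the groups that are high in this difference. It was lower in KO on CD, while its log2 fold change on WD was 1.13 and short of the threshold (limma adjusted p = 0.0781). The difference of 3.88 on the log2 scale was called by limma (adjusted p = 0.0123) and was 2.77 with the library set as a term, where it was not called (adjusted p = 0.388). For Ebp and Insig2 the groups moved in opposite directions, but the test of the difference did not pass. For Ebp every KO library lay above every WT library on CD and below every WT library on WD, and the difference of the deletion effects was -0.90 (limma adjusted p = 0.0764). With the library set as a term it was -0.52 (limma adjusted p = 0.895). For Insig2 every WD library lay above every CD library in WT and below every CD library in KO, and the difference was -1.79 (limma adjusted p = 0.061). With the library set as a term it was -1.13 (limma adjusted p = 0.815). On CD the genotypes coincide with the sets, so the 2 cannot be told apart there.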

How the results depend on the processing

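Counts of called genes among the 25 tested moved as follows. For KO against WT on CD, 5 became 3 with quantile normalization, 0 with the library set or the placeholder as a term and 2 with a replicate block. On WD, 2 became 0 with quantile normalization, a replicate block or either set alone, and 1 with median centring (Ebp, lower in KO), the placeholder as a term or the compared groups alone. For WD against CD in WT, 7 became 4 with the set or the placeholder as a term, a replicate block or set 1 alone. In KO, 8 became 1 with the set as a term, 2 with the placeholder, 3 with the block and 0 with set 2 alone, against 10 with quantile normalization and 11 with median centring. Set 2 alone holds 1 KO library on WD, which is assumed to vary like the other groups. It gave log2 fold changes of -2.04 for Cyp51, -2.07 for Msmo1 and -1.51 for Nsdhl in that comparison. Between KO and WT on WD, sets 1 and 2 alone gave 0.88 and 1.10 for Cyp51 and 0.58 and 0.71 for Npc1. For the difference, 1 became 0 with the set, the placeholder or the block. At these counts of 0, limma gave 2 to 9 genes at an unadjusted p under 0.05. The share of all genes at that threshold was not counted, here or above, so such counts have no background beside them. The shares of all genes called moved as well. In the order above they were 10.3, 4.78, 1.28, 5.03 and 0.331% with quantile normalization, 11.9, 4.20, 1.17, 8.57 and 0.386% with median centring and 5.39, 4.88, 0.552, 0.782 and 0.0368% with the block. They were 1.16, 7.75, 0.699, 0.350 and 0.0184% with the set as a term and 1.23, 5.04, 0.534, 0.258 and 0.0276% with the placeholder. Set 1 alone called 2.93% on WD and 0.460% for diet in WT, and set 2 alone 0.195% on WD and 0.0556% for diet in KO. The compared groups alone called 3.77% on WD. Leaving out 1 library gave 2 to 6, 0 to 3, 4 to 6, 3 to 11 and 0 to 4 called genes in this order, while the share of all genes called ran over 5.43 to 22.7%, 4.12 to 7.41%, 0.368 to 1.30%, 1.06 to 16.2% and 0.0368 to 9.54%. Why these counts moved was not tested. No gene of the 25 changed direction where it was called. Quantile normalization gave 0.07 for Dbi between KO and WT on WD, against -0.74.

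The replicate numbers did not pair the libraries: 2 of 18 pairs of equal number had a correlation of deviations over 0.1 (range -0.297 to 0.158). Depth is known only roughly, and genes near 1 FPKM, such as Sqle, Pmvk and Fdps, rest on few reads.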
